A study of Mus musculus with 8 samples.

Results

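Eosinophils, basophils and mast cells are granule-bearing cells of type 2 immunity, and the transcripts of their granule proteins and of the high-affinity IgE receptor already appear in bone marrow progenitors. The genes described here are 8 marker genes of these lineages: Prg2, Prg3, Epx, Mcpt8, Fcer1a, Fcer1g, Ms4a2 and Cpa3. They were chosen by symbol, and all of their probe sets that the array's annotation gives exactly 1 gene symbol were taken. That made 9 probe sets for the 8 genes, of 34945 such probe sets for 18193 genes on the array.

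The samples were 8 arrays of progenitors sorted from mouse bone marrow. Common myeloid progenitors (CMP) give rise to all myeloid lineages, and granulocyte-macrophage progenitors (GMP) are their descendants committed to granulocytes and macrophages. Both were taken from normal G0 TERTER/+ mice, which carry 1 copy of an allele that fuses telomerase reverse transcriptase to the estrogen receptor, and from G4/G5 TERTER/ER mice, late-generation mice with short telomeres that are homozygous for it. All mice were male and of a mainly C576BL/6 background (as the labels spell it), the sources used here give no ages, and each of the 4 groups held 2 pools of 4 mice, 1 array each. Each array is therefore a mean over 4 animals, G4 and G5 animals are not told apart by the labels, and p-values rest on the spread of pools within a group. In sorted bulk samples a lower signal can come from fewer cells of a type or from less RNA per cell, which cannot be told apart.

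The eosinophil granule is built around a crystalline core of major basic protein, encoded by Prg2, and also holds eosinophil peroxidase from Epx. Prg3 encodes a paralog of major basic protein. Mcpt8 encodes a serine protease that marks mouse basophils despite its mast cell name, and Cpa3 encodes carboxypeptidase A3 of mast cell and basophil granules. The IgE receptor joins an alpha chain that binds IgE (Fcer1a), a beta chain that amplifies the signal (Ms4a2) and a gamma chain (Fcer1g), which also serves many activating Fc and lectin receptors of other myeloid cells. GATA factors and C/EBP factors are known regulators of these lineages.

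Values are MAS5 signals, intensities on a linear scale that the authors scaled to a common target of 100 on each array. A gene was tested if a signal of 50 or more was present on at least 2 arrays, which held for all 8 genes and for 8886 genes in total. Tests were made with limma on log2(signal + 10), so fold changes are compressed for dim genes, and a gene was called at a Benjamini-Hochberg adjusted p under 0.05 over the 8886 genes. Signals of different genes are not comparable as levels, since each probe set has its own response.

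The gates of the sort are not given in the sources used here, and markers commonly used for it were present. Kit read between 723.3 and 2214 and Cd34 between 880.2 and 2459 over the 8 arrays. One array stood apart. Fcgr3, an Fc gamma receptor by which GMP are usually told from CMP, read 38.7 and 83.9 in the G0 CMP pools and 72.2 in G4/G5 CMP pool 2, against 617.5 in G4/G5 CMP pool 1 and 731.9 to 1457 in the GMP arrays. All 10 maturing neutrophil genes of a marker list reached 50 in G4/G5 CMP pool 1, with a summed signal of 56526, against 214.5 in G4/G5 CMP pool 2 and 294.5 and 289.9 in G0 CMP, where 1 or 2 of the 10 genes reached 50. In GMP the same sum was 1464 and 3346 for the G0 pools and 29651 and 32271 for the G4/G5 pools. The results for G4/G5 CMP are therefore given with and without pool 1.

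Promoter sequences were available for 7 of the 8 genes, all but Prg2, as the 250 bases before the transcription start in RefSeq (build GRCm38.p6). Prg2 and Prg3 are neighbouring protein-coding genes on chromosome 2, Mcpt8 lies next to the cathepsin G gene Ctsg on chromosome 14, and Ms4a2 lies next to Ms4a3 on chromosome 19. Both strands were searched for the GATA letters AGATAA and TGATAA, for the PU.1 letters GAGGAA and for the C/EBP letters TTGCNNAA. Below are the Prg3 and Epx promoters, 2 genes whose signals moved together, and that of Cpa3, whose signal moved with neither. The stretches are on the strand of the gene, and capitals mark a GATA match. Only bases outside the gene's annotated span are printed, so the Prg3 and Cpa3 stretches are the first 231 and 222 of the 250 bases and stop short of the start that positions are counted from.
Prg3: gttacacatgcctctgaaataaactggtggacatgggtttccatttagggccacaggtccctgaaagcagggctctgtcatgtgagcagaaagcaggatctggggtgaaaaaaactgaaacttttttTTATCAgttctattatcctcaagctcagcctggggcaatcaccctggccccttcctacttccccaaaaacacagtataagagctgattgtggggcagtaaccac
Epx: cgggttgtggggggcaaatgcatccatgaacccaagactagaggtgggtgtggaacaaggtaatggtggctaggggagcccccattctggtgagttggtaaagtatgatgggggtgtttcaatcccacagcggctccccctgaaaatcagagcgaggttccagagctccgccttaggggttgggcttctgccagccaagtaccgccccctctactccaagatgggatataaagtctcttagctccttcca
Cpa3: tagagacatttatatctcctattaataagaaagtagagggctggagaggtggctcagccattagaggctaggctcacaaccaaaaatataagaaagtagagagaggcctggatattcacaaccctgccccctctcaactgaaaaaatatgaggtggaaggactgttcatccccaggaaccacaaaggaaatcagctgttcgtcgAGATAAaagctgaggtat
These are chr2:84987965-84988195 on the plus strand for Prg3, chr11:87875537-87875786 on the minus strand for Epx and chr3:20242210-20242431 on the minus strand for Cpa3. GATA letters were found in 4 of the 7 promoters, against 16.6% of 32851 mouse promoters of the same length. The match in Prg3 began at -123 from the transcription start (TTATCA, the reverse complement of the searched letters), that in Fcer1a at -92 and that in Cpa3 at -46, while Ms4a2 held 3 matches, at -224, -37 and -11. The Ms4a2 and Mcpt8 windows reach further into the gene's annotated span than the windows printed above. At least the Ms4a2 matches at -37 and -11 lie inside that span, not before it. Epx, Mcpt8 and Fcer1g held no such letters in this window. PU.1 letters occurred in Mcpt8 and Fcer1a, 2 of 7 against 23.3% of all promoters, and C/EBP letters in Fcer1a, 1 of 7 against 9.56%. Of the genes with GATA letters, Prg3 was called higher in normal GMP than in normal CMP, and Fcer1a, Ms4a2 and Cpa3 were not. Of those without, Epx and Mcpt8 were called higher and Fcer1g was not. Whether the letters have a part in these calls was not tested.

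The eosinophil granule genes separated normal CMP from normal GMP. Prg2 read 107.8 and 34.8 in the G0 CMP pools and 1118 and 2125 in the G0 GMP pools, and 2951 and 230.1 in G4/G5 CMP against 1979 and 1635 in G4/G5 GMP. The G0 CMP pools lay below all others, and the other 3 groups overlapped. The mean was 71.3 ± 51.6 (SD, n = 2) for G0 CMP, against 1590.4 ± 1924 for G4/G5 CMP, 1622 ± 711.5 for G0 GMP and 1807 ± 243.3 for G4/G5 GMP, and the last 3 did not differ beyond their spread. In G0, Prg2 was 21.4-fold higher in GMP than in CMP (log2 4.42 ± 0.98 SE, limma adjusted p = 0.0183).

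Prg3, whose protein is the paralog of major basic protein, was at the floor of the array in normal CMP. It read 0.577 and 2.10 in normal CMP against 74.3 and 103.4 in normal GMP, while the G4/G5 pools gave 75.5 and 3.08 in CMP against 64.0 and 46.4 in GMP. The CMP arrays were near 0 except G4/G5 CMP pool 1, which lay among the GMP arrays. In G0 the difference between GMP and CMP was 3.11 ± 0.73 (log2, adjusted p = 0.0212).

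Epx, the peroxidase that makes hypobromous acid in eosinophils, had the same order. It read 19.9 and 4.49 in CMP and 200.4 and 318.4 in GMP of normal mice, and 214.1 and 35.4 in CMP and 228.1 and 210.5 in GMP of G4/G5 mice. The G0 CMP arrays were again lowest, and the GMP arrays of both genotypes overlapped. In G0, Epx was 12.6-fold higher in GMP (log2 3.66 ± 0.65, adjusted p = 0.00949).

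Mcpt8, the basophil protease, had the smallest standard error of the 8 genes in the fit and was the only one of them with groups that were fully separated from each other. It read 218.0 and 244.0 in normal CMP, 477.6 and 317.5 in CMP of G4/G5 mice, 799.6 and 907.8 in normal GMP and 649.6 and 698.7 in GMP of G4/G5 mice, with no overlap between any of the 4 groups. It was higher in GMP than in CMP in both genotypes: by 1.84 ± 0.19 (log2, adjusted p = 0.00187) in G0 and by 0.77 ± 0.19 (adjusted p = 0.0407) in G4/G5. The second call was lost in several other fits, among them those without G4/G5 CMP pool 2 (0.49, adjusted p = 0.0986) and without G4/G5 GMP pool 1 (0.83, adjusted p = 0.216) or pool 2 (0.72, adjusted p = 0.201). It was also lost without G0 GMP pool 1 (adjusted p = 0.0808) or pool 2 (0.0800), which enter the shared estimate of spread.

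**Figure D1:**
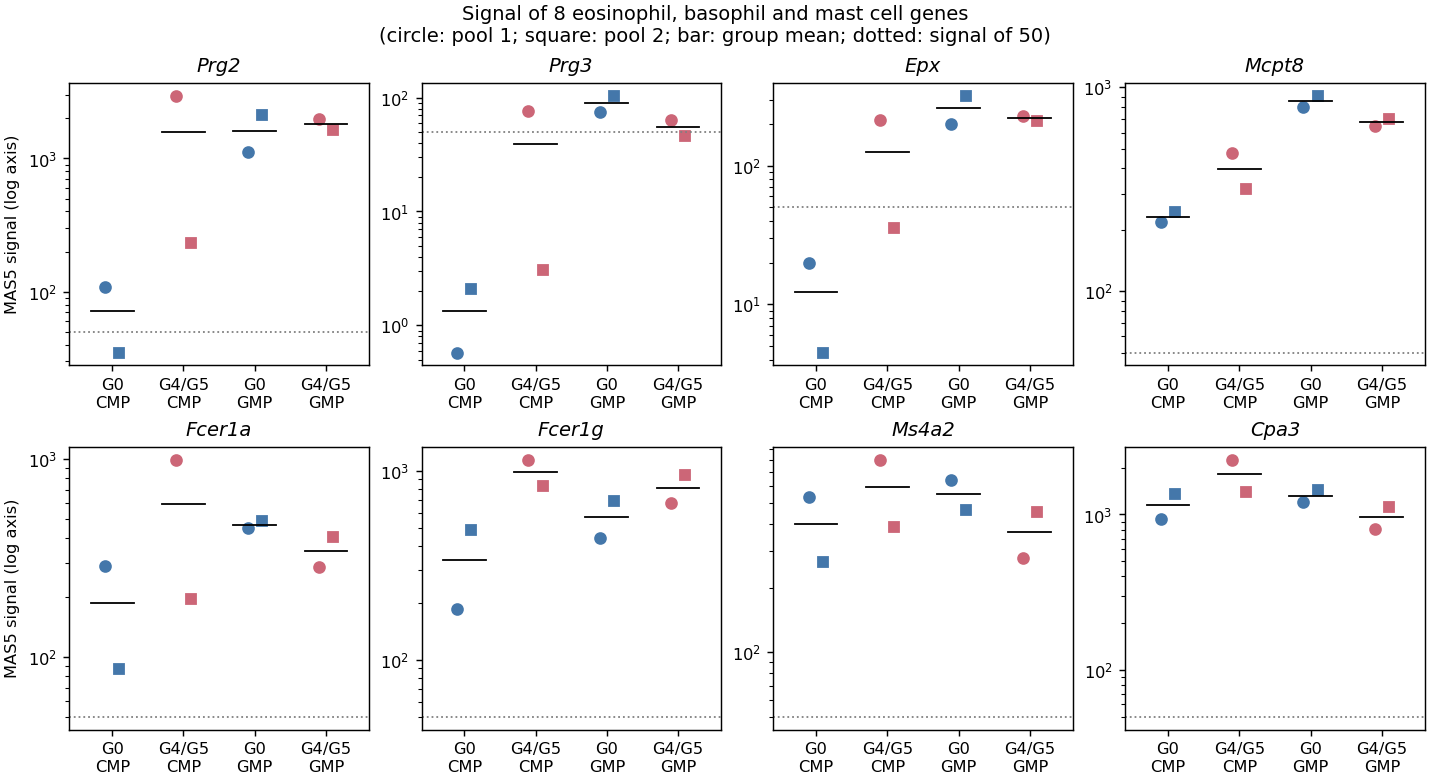
MAS5 signal on a log axis of the 8 genes on each of the 8 arrays, with circles for pool 1, squares for pool 2, bars for the arithmetic group mean and a dotted line at the filter of 50 (each panel has its own axis range). The G0 CMP arrays are lowest for Prg2, Prg3, Epx and Mcpt8, and G4/G5 CMP pool 1 is the highest array for Prg2, Fcer1a, Fcer1g, Ms4a2 and Cpa3.

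The IgE receptor chains were not called between normal CMP and GMP. Fcer1a, the IgE-binding chain, read 287.0 and 86.8 in normal CMP against 446.5 and 484.7 in normal GMP, while the G4/G5 pools gave 988.2 and 195.7 in CMP against 285.0 and 405.2 in GMP. Both G0 GMP pools lay above both G0 CMP pools, yet the difference of 1.49 ± 0.70 (log2, limma adjusted p = 0.162) was not called. It was called with the pool number as a block within each cell type (adjusted p = 0.00830), and also without G4/G5 CMP pool 1 (adjusted p = 0.0385) or pool 2 (adjusted p = 0.0384).

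Ms4a2, the beta chain, had 2 probe sets. The brighter one, used in the fit, read 532.3 and 266.5 in CMP and 641.1 and 465.2 in GMP of normal mice, and 796.3 and 388.5 in CMP and 277.0 and 455.8 in GMP of G4/G5 mice. The other read 105.6 and 36.9 in normal CMP and 133.6 and 82.6 in normal GMP. In G4/G5 mice it read 128.5 and 30.0 in CMP and 33.5 and 40.5 in GMP, so pool 1 of CMP alone reached 50 there. On both probe sets pool 1 was above pool 2 in the 3 groups other than G4/G5 GMP, and the 2 G4/G5 GMP arrays lay below the 2 G0 GMP arrays. Neither was called in any comparison when each probe set was tested by itself, and in G0 the difference between GMP and CMP was 0.52 ± 0.41 (adjusted p = 0.390) for the brighter and 0.65 ± 0.58 (adjusted p = 0.456) for the other.

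Fcer1g, the shared gamma chain, read 186.5 and 484.8 in normal CMP against 441.1 and 694.6 in normal GMP, while the G4/G5 pools gave 1140.3 and 833.7 in CMP against 677.3 and 945.3 in GMP. Its arrays were higher in G4/G5 CMP than in G0 CMP, while G0 CMP and G0 GMP overlapped (log2 0.85 ± 0.41, adjusted p = 0.168). Without G0 CMP pool 2 the latter difference was 1.52 and was called (adjusted p = 0.0292).

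Cpa3, the mast cell and basophil carboxypeptidase, was well above the filter on every array. It read 939.0 and 1354 in CMP and 1202 and 1432 in GMP of normal mice, and 2242 and 1387 in CMP and 812.3 and 1119 in GMP of G4/G5 mice. In G0 the groups overlapped (log2 0.22 ± 0.27, adjusted p = 0.591). In G4/G5 both GMP arrays lay below both CMP arrays, opposite to Mcpt8, with a difference of -0.88 ± 0.27 (adjusted p = 0.0704) that was not called, and -1.22 (adjusted p = 0.0332) without G4/G5 CMP pool 2.

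In normal mice, then, 4 of the 8 genes (Prg2, Prg3, Epx and Mcpt8) were called higher in GMP and 0 lower, beside 10.6% of all tested genes called higher and 10.2% lower. Outside GMP, Prg3 and Epx reached 50 only in G4/G5 CMP pool 1, so they passed the filter through GMP arrays. With no signal filter the same 4 genes were called, beside 1233 of 18193 genes called in either direction. The G0 GMP pools lay wholly above the G0 CMP pools for 5 of 8, these 4 and Fcer1a, beside 32.2% of all genes. The granulocyte and monocyte progenitor sum over 7 genes was 6823 and 14410 in G0 CMP and 31703 and 31284 in G0 GMP, and its part in these calls was not tested. All 8 differences were above 0, beside 48.7% of all genes, with a median of 1.66 on the log2 scale against -0.02 over all genes. Leaving out any G0 pool ended at least 1 of these calls. Without G0 GMP pool 1, Mcpt8 alone was called (adjusted p = 0.0365, against 0.103 for Prg2, 0.124 for Prg3 and 0.0766 for Epx). The same held without G0 GMP pool 2 (Mcpt8 adjusted p = 0.0313, against 0.102, 0.112 and 0.0643). The call of Prg3 was also lost without G0 CMP pool 1 (adjusted p = 0.0599) or pool 2 (0.0639), and that of Prg2 without G0 CMP pool 2 (0.0831). When an array is left out, the lone array of its group is assumed to vary like the other groups.

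In the telomere-dysfunctional mice, 1 of 8 genes, Mcpt8, was called higher in GMP than in CMP, beside 4.18% of all genes, and the pools did not overlap upwards for Mcpt8 (1 of 8, beside 27.7%) and downwards for Cpa3 (1 of 8, beside 33%). Epx (1.18 ± 0.65, adjusted p = 0.261), Prg2 (1.10 ± 0.98, adjusted p = 0.485) and Prg3 (0.95 ± 0.73, adjusted p = 0.409) were not called. Their 2 G4/G5 CMP arrays lay far apart. Without G4/G5 CMP pool 1, 4 genes were called higher in GMP: Prg2 by 2.91 (adjusted p = 0.0117), Prg3 by 2.30 (0.00667), Epx by 2.34 (0.0114) and Mcpt8 by 1.06 (0.00534). Without pool 2, the estimates were -0.71 for Prg2, -0.40 for Prg3 and 0.03 for Epx, and 0 of these were called.

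**Figure D2:**
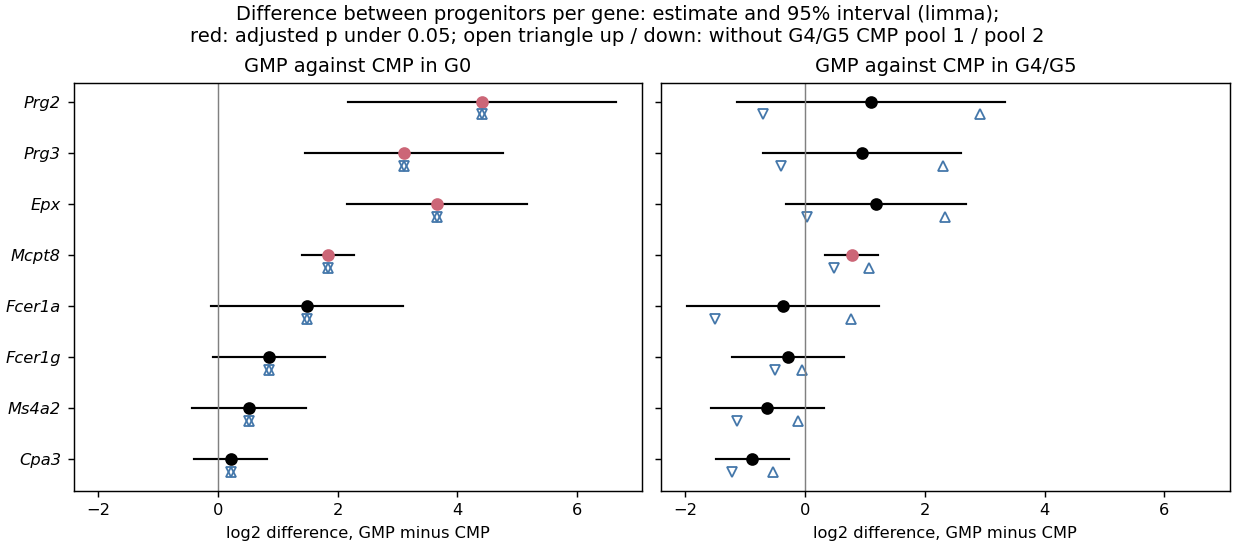
Difference between GMP and CMP of each gene in G0 and in G4/G5 mice (log2, GMP minus CMP), as the limma estimate with its 95% interval, red where the adjusted p is under 0.05, with open triangles for the estimate without G4/G5 CMP pool 1 or pool 2. In G0 the estimates run from 0.22 for Cpa3 to 4.42 for Prg2, and in G4/G5 those of Prg2, Prg3 and Fcer1a change sign with the CMP pool left out.

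The comparison of genotypes asks whether telomere dysfunction goes with a change of these transcripts in a progenitor. In CMP, 0 of the 8 genes were called, beside 0.0113% of all genes called in either direction. All 8 estimates were above 0, beside 55.6% of all genes, and their median was 1.49 on the log2 scale against 0.04 over all genes. At an unadjusted p under 0.05, 5 of the 8 were higher, beside 8.72% of all genes. The G4/G5 pools lay wholly above the G0 pools for 6 of 8, beside 21.7%. These counts describe the 8 genes, which were chosen with earlier results of these data known, and are no test of the list.

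By gene, the eosinophil granule genes differed between genotypes in CMP by 3.54 ± 0.98 (adjusted p = 0.270) for Prg2, 2.28 ± 0.65 (0.277) for Epx and 1.56 ± 0.73 (0.393) for Prg3. For Prg3 the groups were parted only by 3.08 against 2.10, both signals near 0. Mcpt8 differed by 0.73 ± 0.19 (adjusted p = 0.259) and Cpa3 by 0.64 ± 0.27 (0.361). Among the receptor chains Fcer1g differed by 1.66 ± 0.41 (adjusted p = 0.250), Fcer1a by 1.42 ± 0.70 (0.422) and Ms4a2 by 0.55 ± 0.41 (0.596), the last 2 with overlapping pools.

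These estimates rest unequally on the G4/G5 CMP pools. Pool 1 was above pool 2 for all 8 genes. On the log2(signal + 10) scale the difference was 3.62 for Prg2, 2.71 for Prg3, 2.30 for Epx, 2.28 for Fcer1a and between 0.45 and 1.02 for Fcer1g, Mcpt8, Cpa3 and Ms4a2. The pools of that group differed by a median of 0.27 on this scale (without regard to sign) over all genes. Without pool 1 the median genotype estimate of the 8 genes was 0.37 and 0 were called, with 1.72 (adjusted p = 0.404) for Prg2, 1.13 (0.460) for Epx and 1.44 (0.431) for Fcer1g. Without pool 2 the median was 2.22 and 5 were called higher: Prg2 by 5.35 (adjusted p = 0.00208), Epx by 3.43 (0.00457), Prg3 by 2.92 (0.00320), Fcer1a by 2.56 (0.0390) and Mcpt8 by 1.02 (0.0122). Without G0 CMP pool 2, Fcer1g was called (2.33, adjusted p = 0.0331).

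Pool 1 of G4/G5 CMP is also the CMP array with the maturing neutrophil signal given above, and its megakaryocyte and erythroid sum over 7 genes was the highest of all arrays, 3464 against 1162 in pool 2 and 2040 and 1640 in G0 CMP. The part of these other cells in the results for the 8 genes was not tested. Fcer1g was among the 6 genes higher in both G4/G5 CMP pools and had the smallest difference between them, 0.45 on the log2(signal + 10) scale. The summed granulocyte and monocyte progenitor signal over 7 genes was also higher in both, 25429 and 22870 against 6823 and 14410 in G0 CMP. By gene, the G4/G5 CMP pools lay wholly above the G0 CMP pools for 5 of these 7, beside 21.7% of all genes, and Ms4a3 and Irf8 overlapped. Whether that list's cells have a part in the Fcer1g difference was not tested.

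**Figure D3:**
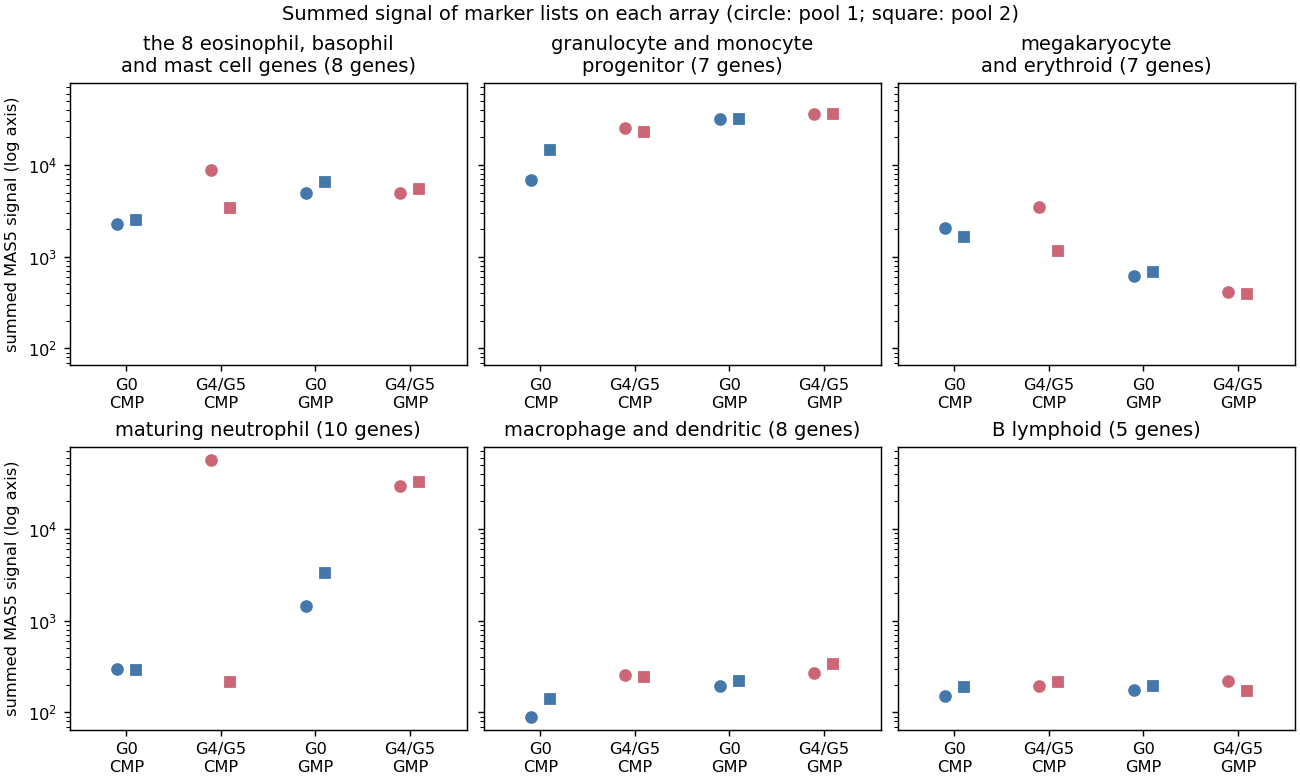
Summed MAS5 signal on a log axis of the 8 genes and of 5 marker lists on each array, with circles for pool 1 and squares for pool 2. G4/G5 CMP pool 1 is the highest array for the 8 genes, for the megakaryocyte and erythroid list and for the maturing neutrophil list, in which its signal is 56526 against 214.5 in pool 2.

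In GMP 6 of the 8 genotype estimates were below 0, and 0 were called. None of 8886 genes was called (0%), and at an unadjusted p under 0.05 0 of 8 were higher, beside 4.6%, and 0 of 8 lower, beside 3.26%. Estimates below 0 were found for 49.1% of all genes, and the median of the 8 was -0.39 against 0.01 over all genes. The G4/G5 pools lay wholly below the G0 pools for 5 of 8, beside 26.5%: Mcpt8 (-0.33 ± 0.19, adjusted p = 0.665), Cpa3 (-0.46 ± 0.27, 0.669), Ms4a2 (-0.61 ± 0.41, 0.704), Prg3 (-0.60 ± 0.73, 0.841) and Fcer1a (-0.44 ± 0.70, 0.875). Epx (-0.20 ± 0.65), Prg2 (0.22 ± 0.98) and Fcer1g (0.52 ± 0.41) had overlapping pools. The maturing neutrophil sum given above also parted these groups and was higher in G4/G5. So were the granulocyte and monocyte progenitor sum and the macrophage and dendritic sum. The megakaryocyte and erythroid sum was lower, 409.2 and 387.3 in G4/G5 GMP against 621.1 and 686.9 in G0 GMP. The part of these cells in the differences was not tested. Intervals were wide: the 95% interval ran from -0.77 to 0.11 for Mcpt8, the narrowest, and from -2.02 to 2.46 for Prg2, the widest.

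The difference between both genotype effects was tested as an interaction, CMP minus GMP. It was called for 0 of the 8 genes and for 0% of all genes, and each of the 8 had an adjusted p of 0.994. All 8 estimates were above 0, beside 54.9% of all genes, and 4 of 8 had an unadjusted p under 0.05, beside 2.46%: Mcpt8 (1.07 ± 0.27), Cpa3 (1.10 ± 0.38), Epx (2.48 ± 0.93) and Prg2 (3.32 ± 1.39). Averaged over both progenitors, the genotype effect was also called for 0 of 8, beside 0.0338% of all genes, with Fcer1g at 1.09 ± 0.29 (adjusted p = 0.187) and Prg2 at 1.88 ± 0.69 (0.232). Without G4/G5 CMP pool 2 the interaction was called for Prg3 (3.52, adjusted p = 0.0366), and the averaged effect for Prg2 (2.78, 0.00398), Epx (1.62, 0.0144) and Prg3 (1.16, 0.0197). Without G4/G5 CMP pool 1, 0 of the 8 were called by either measure, the median interaction over the 8 was 0.79 and the median averaged effect -0.01, against 1.51 and 0.49 with all arrays. Without G0 CMP pool 2 the averaged effect was called for Fcer1g (1.42, adjusted p = 0.0332). The comparisons share arrays, among them the G0 CMP pools that enter both the GMP against CMP difference in G0 and the genotype difference in CMP.

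**Figure D4:**
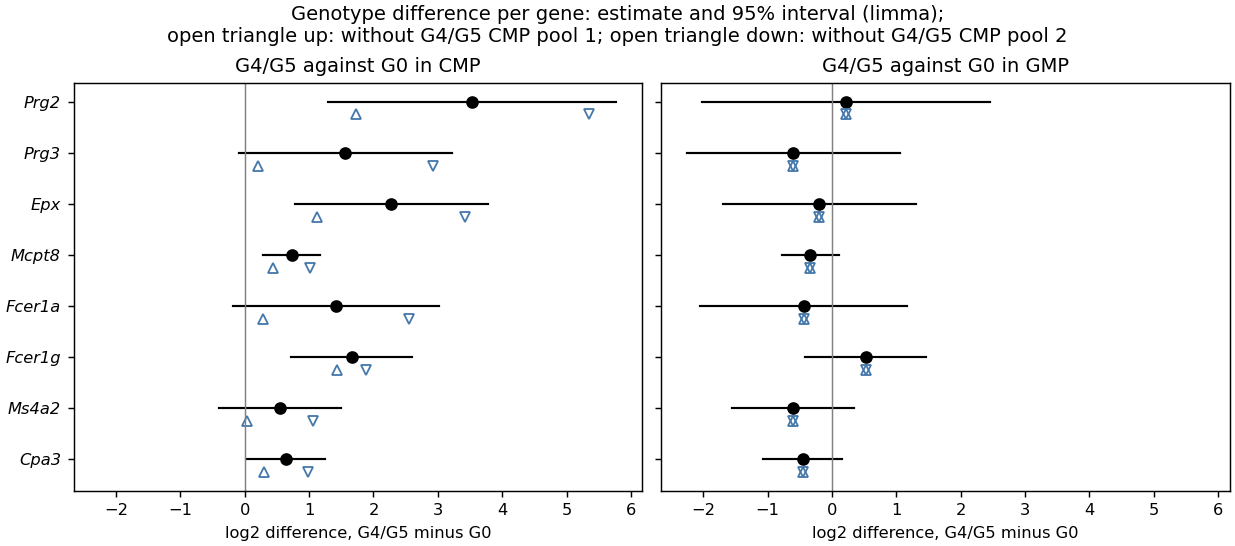
Genotype difference of each gene in CMP and in GMP (log2, G4/G5 minus G0), as the limma estimate with its 95% interval, with open triangles for the estimate without G4/G5 CMP pool 1 or pool 2. All 8 estimates are above 0 in CMP, where 0 were called, and the estimate of Prg2 is 1.72 without pool 1 and 5.35 without pool 2.

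Across the 8 arrays the eosinophil granule genes followed each other closely. The Pearson correlation of log2 signal was 0.98 between Prg2 and Epx, 0.96 between Prg3 and Epx and 0.94 between Prg2 and Prg3, and Mcpt8 correlated at 0.94 with Prg3 and 0.93 with Epx. The chains of the IgE receptor were less alike, with 0.83 between Fcer1a and Ms4a2, 0.37 between Fcer1a and Fcer1g and 0.05 between Fcer1g and Ms4a2. Outside the receptor, Fcer1a correlated at 0.84 with Prg2, 0.80 with Epx, 0.75 with Prg3 and 0.59 with Mcpt8. Cpa3 correlated at 0.02 with Mcpt8 and 0.18 with Prg2, and its highest values were 0.54 with Fcer1g and 0.52 with Ms4a2. These are descriptions over 8 arrays that fall into 4 groups and include G4/G5 CMP pool 1.

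The 8 members were left out when the 3 tested genes most like each member were ranked by correlation over the 8 arrays. Prg2 and Epx, at 0.9849 with each other, would else have stood above Smim7 (0.9831) for Prg2 and Tspo (0.9848) for Epx. Among the remaining genes, those ranked highest were mostly not genes of these lineages. They were G0s2 (0.99), Eapp (0.99) and Smim7 (0.98) for Prg2, Eapp (0.99), Tspo (0.98) and Taldo1 (0.98) for Epx, and Tmem216 (0.98), Psmb1 (0.98) and Sra1 (0.97) for Prg3. For Mcpt8 they were Ube2w (0.99), Stard5 (0.99) and Eif2b4 (0.99). For Fcer1g they were Tyrobp (0.99), which encodes another adaptor of activating myeloid receptors, Ms4a4c (0.98) and Sdhaf1 (0.97). Tyrobp read 284.9 and 971.6 in normal CMP against 870.6 and 1313 in normal GMP, while the G4/G5 pools gave 2005 and 1461 in CMP against 1293 and 1685 in GMP, the same order of arrays within each group as Fcer1g. The likeness was lower for Fcer1a, with Yeats4 (0.96), Tomm20 (0.96) and Bst2 (0.95), for Ms4a2, with Vbp1 (0.94), Bnip2 (0.93) and Gid8 (0.92), and for Cpa3, with Cmtm3 (0.91), Tmem243 (0.91) and Orai2 (0.90).

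Other markers of mature eosinophils and mast cells were mostly below the filter, and those of basophils about evenly divided. Of 6 further eosinophil genes with a probe set, Siglecf and Cd9 passed, and 0 were called in any comparison. Il5ra, the alpha chain of the interleukin-5 receptor that defines the eosinophil progenitor, reached at most 21.1, and Ccr3, the eotaxin receptor, at most 7.06. Of 9 further basophil genes 5 passed, while Cd200r3 reached at most 12.0 and Il4 at most 28.7. Hdc, the histamine-forming enzyme, was the one of these that was called. It read 165.7 and 211.3 in CMP and 760.2 and 874.7 in GMP of normal mice, and 639.4 and 283.1 in CMP and 882.8 and 1067 in GMP of G4/G5 mice. In G0 it was higher in GMP by 2.07 ± 0.32 (adjusted p = 0.00659), and in G4/G5 the difference was 1.17 ± 0.32 (adjusted p = 0.0551). Like Mcpt8, its GMP arrays lay above its CMP arrays in both genotypes.

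Other mast cell genes were called lower in GMP and not higher. Of 17 with a probe set 7 passed, and several proteases of mature mast cells stayed well below 50: Cma1 reached at most 2.36, Mcpt4 7.57, Tpsb2 16.7 and Tpsab1 9.37. Gzmb, a granule protease also known from cytotoxic lymphocytes, reached 65.7 in G4/G5 CMP pool 1 and at most 30.3 on the other arrays. In G0, 0 were called higher and 3 lower in GMP, beside 10.6% and 10.2% of all genes, with a median over the 7 of -0.85. The log2 difference was -1.92 ± 0.24 (adjusted p = 0.00350) for Slc18a2, the vesicular monoamine transporter, -1.86 ± 0.25 (0.00419) for Rab27b, a granule-docking GTPase, and -1.02 ± 0.27 (0.0337) for Kit, the stem cell factor receptor and itself a usual sorting marker. In G4/G5, Slc18a2 (-2.68 ± 0.24, adjusted p = 0.00127) and Rab27b (-2.21 ± 0.25, adjusted p = 0.00282) were lower, 2 of 7 beside 6.29% of all genes. Slc18a2 is also known from the megakaryocyte lineage, whose sum fell into separate ranges, 1162 to 3464 in CMP and 387.3 to 686.9 in GMP, and its part in these differences was not tested.

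Regulators of these lineages were called in both directions. Of 18 listed transcription factors 16 passed the filter, and in G0 GMP 3 were higher and 7 lower than in CMP, beside 10.6% and 10.2% of all genes, with a median of -0.09. Gata1 and Gata2, which direct eosinophil, basophil and mast cell fates among others, were lower, with log2 differences of -1.95 ± 0.33 (adjusted p = 0.00820) and -1.20 ± 0.18 (0.00574), as was their partner Zfpm1 (-2.14 ± 0.17, 0.000789). Cebpb was higher by 2.08 ± 0.25 (0.00302), and Xbp1, which serves the secretory pathway and is needed by eosinophils, by 1.06 ± 0.13 (0.00321). Gata2 read 763.3 and 894.1 in normal CMP against 387.0 and 324.3 in normal GMP, while the G4/G5 pools gave 1223 and 993.4 in CMP against 205.9 and 265.7 in GMP, so its GMP arrays lay below its CMP arrays in both genotypes, the reverse of Mcpt8. In G4/G5, 2 were higher and 7 lower, beside 4.18% and 6.29% of all genes, and between genotypes 0 of 16 were called in either progenitor.

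Of the genes that signal downstream of the IgE receptor, 17 passed the filter. In normal GMP 0 were called higher and 4 lower, beside 10.6% and 10.2% of all genes: Fyn (-1.56 ± 0.26, adjusted p = 0.00851), Lat (-1.43 ± 0.17, 0.00270), Lcp2 (-0.99 ± 0.22, 0.0172) and Cblb (-0.79 ± 0.15, 0.0108), with a list median of -0.40. In G4/G5, Fyn and Lat were called lower, 2 of 17 beside 6.29% of all genes. These kinases and adaptors serve receptors of T cells and platelets as well. Among 7 cytokine receptor genes past the filter, which included Il3ra, Csf2ra and Csf2rb, Kit was the one gene called in G0 and 0 were called in G4/G5.

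Of 5 receptors past the filter that pair with the gamma chain of Fcer1g, 2 were higher and 1 lower in normal GMP, beside 10.6% and 10.2% of all genes: Fcgr3 (3.73 ± 0.77, adjusted p = 0.0147), Clec5a (3.39 ± 0.52, 0.00632) and Clec4d (-0.81 ± 0.20, 0.0266). Clec5a stands in the list although it is better known as a partner of the adaptor encoded by Tyrobp. Fcgr3 is a usual sorting marker, so its difference between CMP and GMP is not independent of the sort. In all of these lists 0 genes were called between genotypes in CMP or in GMP.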

How the data were processed

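Gene expression was measured on 8 Affymetrix mouse whole-genome arrays, 2 pools in each of 4 groups. The deposited linear intensities are MAS5 signals, per the submitters' processing notes, made by the authors with MAS 5.0 at a target of 100, per the series text. Every array had a mean of 100.001 after trimming 2% at each end. The sources used here give no detection calls and no genome build, and the number of arrays limits the precision.

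They were turned into log2(signal + 10), without normalizing between arrays again. Of 45101 probe sets, 64 controls, 932 with several symbols and 9160 without one were left out. Each gene was represented by its brightest probe set (by mean) among those reaching 50 on at least 2 arrays. limma 3.58.1 in R 4.3.3 (lmFit and eBayes with an intensity trend, 1 mean per group, 4 residual degrees of freedom, Benjamini-Hochberg over 8886 genes, threshold 0.05) gave 6 comparisons, and the code was tested on simulated data. Tables and figures used matplotlib 3.10.9, SciPy 1.17.1 and pandas 2.3.3 under Python 3.11.15.

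The 8 genes and the lists were chosen with earlier results of these data known. All 8 genes are named, with the 3 genes outside the 8 that were most correlated with each. From a list, genes that passed a test or else its brightest ones are named. The undetected markers of a list were chosen for naming after their values were seen. The series text pairs same-numbered pools of the 2 genotypes by age and sex. The difference between pools correlated between genotypes at 0.247 in CMP and 0.139 in GMP over 8886 genes. No source used here tells whether CMP and GMP pools of 1 number share mice, and the fit takes the 8 arrays as independent; that correlation was 0.217 between G0 CMP and G0 GMP and 0.0343 in G4/G5. Alternatives covered the pseudocount, filter, normalization, probe set choice, moderation, pool block, arrays in the fit and each array left out. Promoter letters and sequences are from RefSeq (GRCm38.p6).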

Additional observations from a re-analysis of the deposited data

Results flagged for a closer look

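For 3 of the 8 genes every G4/G5 array moved one way in CMP and the opposite way in GMP, above both G0 pools in CMP and below both in GMP. The genotype effect in CMP minus that in GMP was 2.16 ± 1.03 (log2, SE) for Prg3, 1.07 ± 0.27 for Mcpt8 and 1.10 ± 0.38 for Cpa3. The interaction test called none of them (limma adjusted p = 0.994 for each). Without G4/G5 CMP pool 1 the values were 0.81, 0.78 and 0.75, also not called, and without pool 2 that of Prg3 was 3.52 and called (adjusted p = 0.0366). Of all 8886 genes 2.28% had this pattern, and 2.04% had the reverse pattern, among them 0 of the 8. For Prg3 the separation in CMP is that between signals of 3.08 and 2.10. Groups of 2 pools are too small for a formal test of an outlying array.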

How the results depend on the processing

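Of 554 values for the 8 genes under other settings than a left-out array, 548 kept their direction and their side of the threshold. The count of genes called higher or lower between GMP and CMP in G4/G5 went from 1 to 0 with no signal filter, with quantile normalization, without the intensity trend and with only the arrays compared, since Mcpt8 was lost (adjusted p = 0.0699, 0.0607, 0.0597 and 0.0877). The mean genotype effect of Ms4a2 turned from -0.028 to 0.016 under quantile normalization, and neither was called. A filter of 100 left Prg3 untested. With the pool number as a block within cell type, 5 rather than 4 genes were called between GMP and CMP in G0 and 1 in G4/G5, and the pool block changed no other call of the 8 genes. With the arrays left out in turn, the number of genes called ran from 0 to 5 for the genotype in CMP, 0 to 3 for the mean effect, 0 to 1 for the difference of effects, 1 to 5 for GMP against CMP in G0 and 0 to 4 in G4/G5.

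Signs turned for some values that were not called when an array was left out. In GMP the genotype effect ran from -0.24 to 0.68 for Prg2 and from -0.52 to 0.12 for Epx. The mean effect ran from -0.19 to 1.16 for Prg3, -0.081 to 1.06 for Fcer1a, -0.28 to 0.23 for Ms4a2 and -0.080 to 0.26 for Cpa3. GMP against CMP ran from -0.045 to 0.48 for Cpa3 in G0, and in G4/G5 from -0.71 to 2.91 for Prg2, -0.40 to 2.30 for Prg3 and -1.51 to 0.77 for Fcer1a. The cause was not tested. Counts over all genes moved by far over 1.5 times between settings, from 67 to 2551 for GMP against CMP in G0, 65 to 1465 in G4/G5, 0 to 425 for the genotype in CMP and 0 to 360 in GMP, 0 to 668 for the mean effect and 0 to 11 for the difference of effects. Prg3 and Epx read below 50 in normal CMP, as did Prg2 in G0 CMP pool 2 (34.8), which limits the precision of the fold changes of all of them.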
